A study of Mus musculus with 32 samples.

Results

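The 10 genes Myh13, Mylpf, Mymx, Capn3, Trpm1, Triml1, Phf11d, Gprc5a, Zfp981 and Acot1 were followed through the exit of mouse embryonic stem cells from naive pluripotency. They are a hand-picked set out of 31053 gene rows, named as genes better known from muscle and other tissues that are present in naive cells and lost after withdrawal, so they were chosen by their measured levels over all 16 groups. Their changes within a course are therefore given as a description with no test. The contrast of 2i with 2iL was not itself used in the choice and is tested. Levels in both media at 0 h and later were used, so the numbers of genes that passed may depend in part on the choice. Low levels after withdrawal follow in part from it. The cells were E14, a blastocyst-derived line, grown in serum-free N2B27 medium with 2i (CHIR99021, which inhibits the kinase GSK3, and PD0325901, which inhibits the kinase MEK) or with 2iL, the same inhibitors plus the cytokine LIF. On the day after plating these additions were taken out and N2B27 alone was given, so every later time also differs from 0 h in time in culture. Cells from 2i were taken at 0, 12, 24, 36, 48, 60, 72 and 84 h, and cells from 2iL at 0, 24, 36, 48, 60, 72, 84 and 96 h, with 2 libraries per group. These are bulk libraries of a single line, in which fewer cells with a transcript and less transcript per cell cannot be told apart. The source of the replicates is not stated in the labels, and the p-values below therefore measure the spread between libraries, which may be technical.

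Skeletal muscle contracts when myosin heavy chains, each carrying an essential and a regulatory light chain, pull on actin filaments, and its fibres form when myoblasts fuse through the membrane proteins myomaker and myomixer. These genes are switched on in the muscle lineage by the basic helix-loop-helix factors MYOD1, MYF5, MYF6 and MYOG, which bind E-box sequences. Naive embryonic stem cells are held by a network of transcription factors that LIF and the inhibitors sustain, and after withdrawal they pass to a formative, epiblast-like state.

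Of the muscle genes, Myh13 encodes the myosin heavy chain of eye and laryngeal muscle (ENSMUSG00000060180, chromosome 11, 67321658 to 67371586, plus strand) and Mylpf the regulatory light chain of fast skeletal muscle (ENSMUSG00000030672, chromosome 7, 127208890 to 127214298, plus strand). Mymx encodes myomixer, the small membrane protein of myoblast fusion (ENSMUSG00000079471, chromosome 17, 45600971 to 45602102, minus strand), and Capn3 the calcium-dependent protease calpain-3 of muscle (ENSMUSG00000079110, chromosome 2, 120456019 to 120504913, plus strand). Of the membrane proteins, Trpm1 is a cation channel of melanocytes and retinal bipolar cells (ENSMUSG00000030523, chromosome 7, 64153835 to 64269775, plus strand) and Gprc5a an orphan receptor inducible by retinoic acid (ENSMUSG00000046733, chromosome 6, 135065651 to 135084709, plus strand). Triml1 is a TRIM-like protein of the early embryo (ENSMUSG00000031651, chromosome 8, 43129807 to 43141486, minus strand), Phf11d a PHD finger protein (ENSMUSG00000068245, chromosome 14, 59347407 to 59365470, minus strand) and Zfp981 a zinc finger protein (ENSMUSG00000056300, chromosome 4, 146502027 to 146539395, plus strand). Acot1 is a cytosolic thioesterase that splits long-chain acyl-CoA (ENSMUSG00000072949, chromosome 12, 84009490 to 84018371, plus strand). Positions are those of GENCODE M21 on GRCm38, the build also called mm10. They lie on 9 chromosomes, with Mylpf and Trpm1 on the same chromosome.

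Promoter windows of 300 bases, from 250 before to 50 after the start site, were held for 8 of the 10 genes (RefSeq, GRCm38.p6, 10 windows, since Capn3 and Trpm1 have a pair each), and none for Mymx and Gprc5a. The windows with CAGCTG, the E-box form preferred by the myogenic factors, are shown because the set mixes muscle genes with others and the letters can be compared between them. CAGCTG stands in 5 of the 10 windows, those of Mylpf, Capn3, Triml1 and Acot1, and in 16.3% of 32851 mouse promoter windows of this length. In the following lines, read 5′ to 3′ on the strand of the gene, capitals mark CAGCTG, a palindrome that reads alike on both strands.
Mylpf: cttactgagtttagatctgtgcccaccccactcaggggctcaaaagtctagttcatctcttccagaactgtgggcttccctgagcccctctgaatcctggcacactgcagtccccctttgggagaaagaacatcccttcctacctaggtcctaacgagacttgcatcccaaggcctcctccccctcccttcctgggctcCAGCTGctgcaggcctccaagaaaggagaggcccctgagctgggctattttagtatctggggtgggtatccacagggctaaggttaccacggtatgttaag
Capn3, upstream start: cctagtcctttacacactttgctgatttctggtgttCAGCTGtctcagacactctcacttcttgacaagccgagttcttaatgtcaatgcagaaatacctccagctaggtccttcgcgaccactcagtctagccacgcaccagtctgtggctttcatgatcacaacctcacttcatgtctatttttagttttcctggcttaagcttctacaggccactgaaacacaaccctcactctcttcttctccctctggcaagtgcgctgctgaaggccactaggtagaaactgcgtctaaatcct
Capn3, downstream start: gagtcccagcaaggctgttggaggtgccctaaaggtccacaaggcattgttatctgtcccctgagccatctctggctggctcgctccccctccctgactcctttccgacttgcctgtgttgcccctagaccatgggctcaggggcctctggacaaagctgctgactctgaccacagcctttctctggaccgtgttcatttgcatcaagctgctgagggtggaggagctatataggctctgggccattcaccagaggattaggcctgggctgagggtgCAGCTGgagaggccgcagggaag
Triml1: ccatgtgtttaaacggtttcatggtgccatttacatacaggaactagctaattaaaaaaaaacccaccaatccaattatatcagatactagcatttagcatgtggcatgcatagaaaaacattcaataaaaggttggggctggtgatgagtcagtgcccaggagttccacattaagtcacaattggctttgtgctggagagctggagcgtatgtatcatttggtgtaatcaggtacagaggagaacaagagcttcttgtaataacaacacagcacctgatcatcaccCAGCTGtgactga
Acot1: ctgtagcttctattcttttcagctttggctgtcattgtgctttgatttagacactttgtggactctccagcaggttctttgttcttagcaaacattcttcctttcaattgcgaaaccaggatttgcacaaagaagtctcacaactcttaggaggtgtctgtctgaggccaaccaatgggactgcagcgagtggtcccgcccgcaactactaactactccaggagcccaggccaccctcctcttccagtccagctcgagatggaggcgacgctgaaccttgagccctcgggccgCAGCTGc
These windows are chr7:127211358-127211657 on the plus strand, chr2:120463343-120463642 and chr2:120476659-120476958 on the plus strand, chr8:43141437-43141736 on the minus strand and chr12:84009252-84009551 on the plus strand. The match lies at -51 from the start site in Mylpf, at -214 and +27 in the windows of Capn3, at +37 in Triml1 and at +43 in Acot1. The window of Myh13 holds no CAGCTG, so the letters are neither in every muscle gene of the set nor in muscle genes alone. A match is a description of the sequence and no evidence of binding. The windows of Mylpf, Capn3, Myh13 and Zfp981 do not lie at the gene starts of GENCODE given above. Counts from the 3′ end do not show which start was in use in these cells.

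The Trpm1 windows are shown because MITF, the melanocyte factor that binds E-boxes, has a transcript that, like Trpm1, was lower in 2i than in 2iL at 0 h. Here capitals mark every E-box of the form CANNTG, which overlaps with CAGCTG and stands in 72.3% of all windows.
Trpm1, upstream start: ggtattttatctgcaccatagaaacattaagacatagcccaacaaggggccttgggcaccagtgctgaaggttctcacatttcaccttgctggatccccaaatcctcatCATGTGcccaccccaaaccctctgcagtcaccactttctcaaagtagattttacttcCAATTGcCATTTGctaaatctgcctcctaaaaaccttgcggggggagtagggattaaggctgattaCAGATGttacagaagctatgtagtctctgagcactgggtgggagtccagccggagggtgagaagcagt
Trpm1, downstream start: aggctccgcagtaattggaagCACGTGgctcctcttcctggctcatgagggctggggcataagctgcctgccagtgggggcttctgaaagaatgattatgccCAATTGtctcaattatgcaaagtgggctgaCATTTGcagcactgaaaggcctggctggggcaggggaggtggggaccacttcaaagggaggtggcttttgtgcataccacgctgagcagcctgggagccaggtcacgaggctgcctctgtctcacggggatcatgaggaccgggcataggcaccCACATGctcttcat
They are chr7:64153585-64153884 and chr7:64185209-64185508, both on the plus strand. The upstream window holds 4 E-boxes and the downstream window 4, of which CACGTG at -229 is one. For the other letters searched, on both strands, the numbers of windows among the 10 and the shares of all windows are as follows. STAT sites TTCNNNGAA were in 1 window (8.30%), octamers ATGCAAAT in 1 (1.74%), SOX sites ACAAAG in 3 (18.7%), TCF sites CTTTGAT in 1 (3.73%) and KLF sites GGGNGTG in 1 (29.2%). The ESRRB site AAGGTCA (4.72% of all windows) and the TATA box TATAAA (13.6%) were in none of them. The 10 windows held 2 to 9 CG dinucleotides, with a median of 3.5 against 7 in all windows.

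Transcripts were counted from the 3′ end, and levels are given as CPM (counts per 1000000 counts, with library totals adjusted by TMM factors), which compare 1 gene between libraries and not 1 gene with another. The 31 libraries used held 1122648 to 3438514 counts, and a count of 0 in a library allows up to 0.872 to 2.67 CPM (3 counts). These limits and the intervals below cover counting error only. A fold given below as at least sets the group at 0 counts to 3 counts. It takes the other group's counts as exact, so it is approximate. The library 2iL 36 h replicate 2, with 7298 counts and 0 of each of the 10 genes, was left out, so that 2iL 36 h is 1 library. The correlation of log2 CPM between partner libraries was 0.945 to 0.981, and was lowest in 2iL 96 h, 2i 12 h, 2iL 84 h and 2iL 24 h. On earlier results of these data 4 libraries were set apart from their partners. They are replicate 2 of 2i at 12 h, and in the 2iL course replicate 1 at both 48 h and 96 h and replicate 2 at 84 h. The tests were repeated without these 4. All 10 genes passed the filter on low counts that left 11849 genes for testing.

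The levels did not follow 1 course. Myh13, Trpm1 and Triml1 were at their highest at 0 h in both courses. Mymx, Phf11d, Capn3 and Zfp981 had their highest group mean after the start of withdrawal in both courses, and only then declined. Acot1 went against the description by which the set was named, with a mean at the last time above that at 0 h in both courses.

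**Figure D1:**
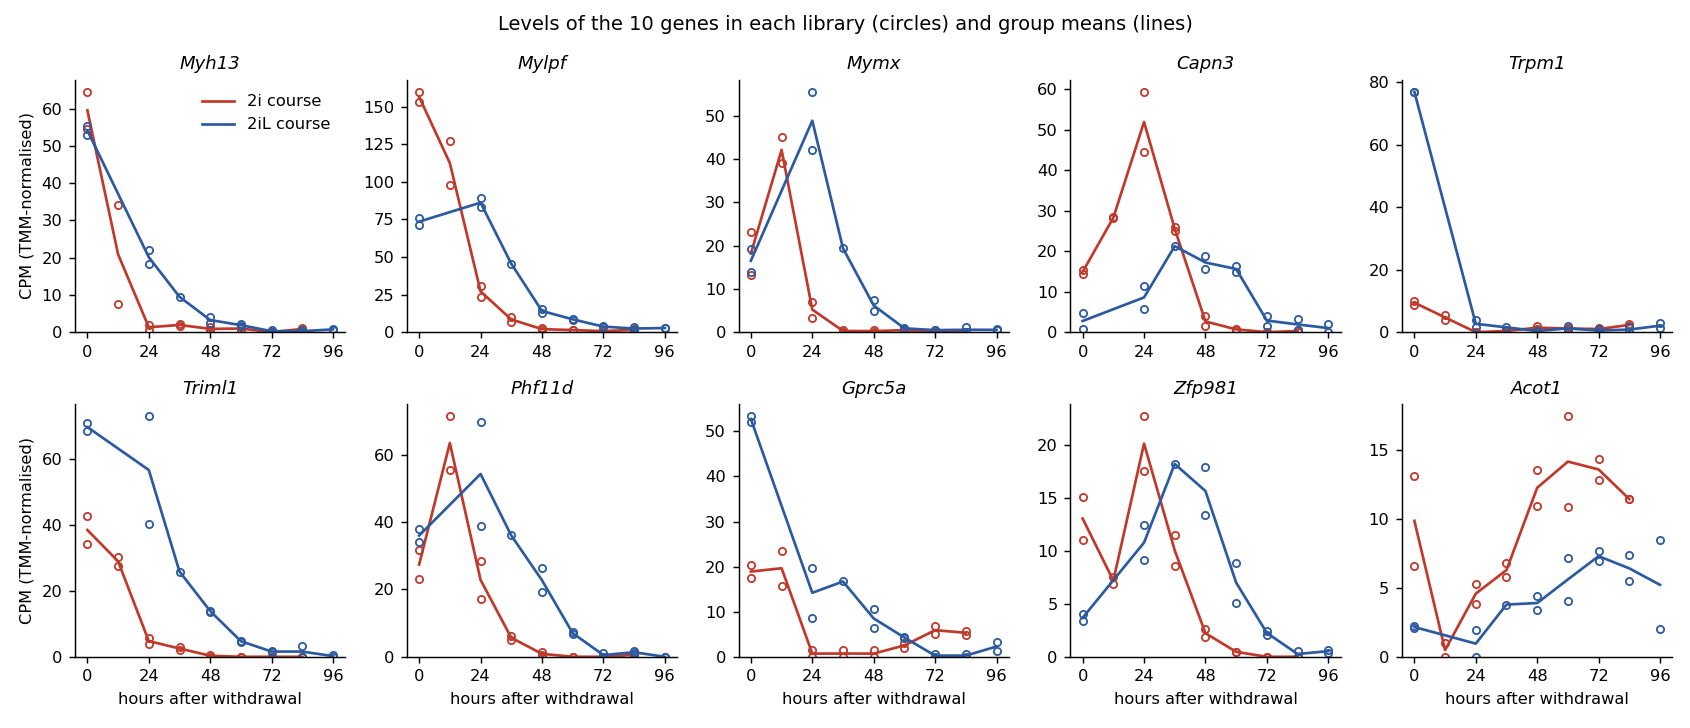
CPM (TMM-normalised, own linear axis for each gene) against hours after withdrawal, with circles for libraries and lines through group means, in red for the 2i course and in blue for the 2iL course. Mymx, Phf11d, Capn3 and Zfp981 peak after 0 h in both courses, of which 2iL has no library at 12 h, and Acot1 alone ends above its 0 h mean in both courses.

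Myh13 was at 64.6 and 54.6 CPM at 0 h of the 2i course, and at 7.55 and 34.3 CPM at 12 h. The 12 libraries from 24 h to 84 h held 0 to 2.16 CPM, so that the loss in 2i lay before 24 h. With LIF before withdrawal it was at 55.5 and 52.9 CPM at 0 h, 18.2 and 22.02 CPM at 24 h, and 9.49 CPM at 36 h. Levels of 4.11 and 2.39 CPM followed at 48 h, and 0 to 2.22 CPM in the 8 libraries from 60 h to 96 h. The libraries of 0 h lay above all later libraries in both courses. The spread at 12 h was wide, and the higher of the 2 values there is from 2i 12 h replicate 2, one of the 4 libraries set apart above. At 72 h, Myh13 had 0 counts in 2i, at least 58.9-fold lower than the 266 counts of 0 h, and 1 count in 2iL.

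Mylpf, the light chain, was at 153 and 160 CPM at 0 h of the 2i course, and 127 and 97.9 CPM at 12 h. The level was then 23.7 and 30.6 CPM at 24 h, 6.85 and 10.1 CPM at 36 h, and 0.625 to 2.58 CPM in the 8 libraries from 48 h to 84 h. The libraries of successive times do not overlap up to 48 h. From 2iL it was at 71.0 and 76.0 CPM at 0 h, 89.0 and 83.3 CPM at 24 h, and 45.5 CPM at 36 h. It declined later, with 15.4 and 12.8 CPM at 48 h, 8.88 and 8.20 CPM at 60 h, and 1.65 to 4.09 CPM in the 6 libraries from 72 h to 96 h. Both 2iL libraries of 24 h were above those of 0 h, while in the 2i course the libraries of 24 h were already at 17.3% of the 0 h mean. Mylpf was still counted in every library of every group, down to 1 count in each 2i library of 72 h.

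Mymx, the fusion protein, was at 13.1 and 23.2 CPM at 0 h of the 2i course, and 39.1 and 45.0 CPM at 12 h. The level was then 3.38 and 7.03 CPM at 24 h, and 0 to 0.570 CPM in the 10 libraries from 36 h to 84 h. Mymx was thus higher at 12 h than at 0 h in both libraries. In 2iL it was at 13.9 and 19.11 CPM at 0 h, 55.5 and 42.1 CPM at 24 h, and 19.4 CPM at 36 h. Lower values followed, 7.53 and 4.79 CPM at 48 h, and 0 to 1.10 CPM in the 8 libraries from 60 h to 96 h. The highest means, 2.32 times that of 0 h at 12 h of the 2i course and 2.96 times at 24 h of the 2iL course, came from libraries that do not overlap with those of 0 h. The 2iL course has no library at 12 h. From 36 h of the 2i course there were 4 counts of Mymx in 10 libraries.

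Capn3, the protease, was at 14.3 and 15.4 CPM at 0 h of the 2i course, 28.1 and 28.4 CPM at 12 h, and 44.4 and 59.4 CPM at 24 h. After this peak it was at 25.1 and 25.9 CPM at 36 h, 3.87 and 1.41 CPM at 48 h, and 0 to 0.872 CPM in the 6 libraries from 60 h to 84 h. The climb to 24 h is seen in both libraries of each time. In cells from 2iL it was at 4.62 and 0.889 CPM at 0 h, 11.4 and 5.74 CPM at 24 h, and 21.3 CPM at 36 h. High values lasted longer here, with 18.8 and 15.6 CPM at 48 h, 14.8 and 16.4 CPM at 60 h, 1.64 and 4.09 CPM at 72 h, and 0 to 3.29 CPM in the 4 libraries of 84 h and 96 h. Capn3 was thus a low transcript in 2iL (13 counts in both 0 h libraries) that reached 7.71 times its 0 h mean in the 1 library of 36 h. It was back at 1.04 times that mean at 72 h and at 36.1% of it at 96 h, with 3 counts. Exons of Ganc, a glucosidase gene on the same strand, overlap those of Capn3, and reads in shared exons cannot be assigned. The opposite-strand gene Zfp106 lies 1.91 kb away.

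Trpm1, the channel, was at 10.1 and 8.82 CPM at 0 h of the 2i course, 5.49 and 3.91 CPM at 12 h, and 0 CPM in both libraries of 24 h. It was then at 0 to 1.94 CPM in the 8 libraries from 36 h to 72 h, and at 1.91 and 2.72 CPM at 84 h. After 2iL it was at 76.9 CPM in each library of 0 h, at 1.52 and 3.83 CPM at 24 h, and at 0 to 2.82 CPM in the 11 libraries from 36 h to 96 h. Trpm1 therefore had the steepest early change of the set in 2iL, to 3.48% of the 0 h mean at 24 h. It had no count at 24 h in 2i, at least 15.6-fold lower than at 0 h.

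Gprc5a, the receptor, was at 17.4 and 20.4 CPM at 0 h of the 2i course, and 15.8 and 23.5 CPM at 12 h. It was at 0 to 1.44 CPM in the 6 libraries from 24 h to 48 h, and then at 3.05 and 2.00 CPM at 60 h, 5.001 and 6.80 CPM at 72 h, and 5.74 and 4.90 CPM at 84 h. All 4 libraries of 72 h and 84 h lay above those of 24 h to 48 h. Coming from 2iL it was at 52.1 and 53.3 CPM at 0 h, 19.8 and 8.62 CPM at 24 h, and 16.7 CPM at 36 h. Later values were 10.6 and 6.38 CPM at 48 h, 4.44 and 4.10 CPM at 60 h, 0 to 0.526 CPM in the 4 libraries of 72 h and 84 h, and 1.33 and 3.22 CPM at 96 h. It was lost and then counted again in 2i, to 28.2% of its 0 h mean at 84 h. In 2iL it had 2 counts in the 4 libraries of 72 h and 84 h and 10 in those of 96 h.

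Triml1, the TRIM-like protein, was at 42.5 and 34.2 CPM at 0 h of the 2i course, and 27.5 and 30.3 CPM at 12 h. The level was then 3.86 and 5.62 CPM at 24 h, and 2.85 and 2.16 CPM at 36 h, with 1 count in all in the 8 libraries from 48 h to 84 h. Triml1 was thus all but uncounted in 2i from 48 h on. In the 2iL course it was at 70.6 and 68.4 CPM at 0 h, 40.3 and 72.8 CPM at 24 h, and 25.8 CPM at 36 h. Later values were 13.7 and 13.96 CPM at 48 h, 4.81 and 4.61 CPM at 60 h, and 0 to 3.16 CPM in the 6 libraries from 72 h to 96 h. In 2iL the libraries of 24 h still overlap with those of 0 h. In 2i Triml1 was at least 38.1-fold lower at 72 h than at 0 h.

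Phf11d, the PHD finger protein, was at 31.7 and 23.2 CPM at 0 h of the 2i course, and 55.6 and 71.4 CPM at 12 h. The level was then 28.5 and 17.2 CPM at 24 h, 6.27 and 5.04 CPM at 36 h, and 0 to 1.29 CPM in the 8 libraries from 48 h to 84 h. Only the 12 h libraries lay above both of 0 h. In the 2iL course it was at 37.8 and 34.2 CPM at 0 h, 38.8 and 69.9 CPM at 24 h, and 36.1 CPM at 36 h. Later values were 26.4 and 19.2 CPM at 48 h, 7.40 and 6.66 CPM at 60 h, and 0 to 1.65 CPM in the 6 libraries from 72 h to 96 h. Like Mymx, it had its highest mean at 12 h of the 2i course (2.32 times that of 0 h) and at 24 h of the 2iL course (1.51 times). Both 2iL libraries of 96 h had 0 counts, at least 47.9-fold lower than at 0 h.

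Zfp981, the zinc finger protein, was at 15.1 and 11.03 CPM at 0 h of the 2i course, 7.55 and 6.85 CPM at 12 h, and 22.7 and 17.6 CPM at 24 h. After this it was at 8.56 and 11.5 CPM at 36 h, 2.58 and 1.87 CPM at 48 h, and had 2 counts in the 6 libraries from 60 h to 84 h. The 12 h libraries lay below and the 24 h libraries above those of 0 h. In the 2iL course it was at 3.36 and 3.999 CPM at 0 h, 9.12 and 12.4 CPM at 24 h, and 18.2 CPM at 36 h. High values lasted to 48 h, with 13.4 and 18.0 CPM at 48 h, 8.88 and 5.13 CPM at 60 h, 2.45 and 2.05 CPM at 72 h, and 0 to 0.664 CPM in the 4 libraries of 84 h and 96 h. As with Capn3, the 2iL mean was low at 0 h and highest at 36 h, here 4.95 times that of 0 h. Zfp981 stands among closely related zinc finger genes, and how reads common to them were counted is uncertain.

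Acot1, the thioesterase, was at 13.1 and 6.62 CPM at 0 h of the 2i course, 0 and 0.979 CPM at 12 h, and 5.31 and 3.86 CPM at 24 h. The level was then 6.85 and 5.76 CPM at 36 h, and 10.9 to 17.5 CPM in the 8 libraries from 48 h to 84 h. These late values overlap with those of 0 h. In the 2iL course it was at 2.10 and 2.22 CPM at 0 h, 0 and 1.91 CPM at 24 h, and 3.80 CPM at 36 h. Later values were 3.42 and 4.39 CPM at 48 h, 4.07 and 7.18 CPM at 60 h, 6.95 and 7.67 CPM at 72 h, 7.36 and 5.49 CPM at 84 h, and 1.99 and 8.47 CPM at 96 h. The transcript was nearly absent at 12 h of the 2i course (1 count, against 46 at 0 h, a ratio of 0 h over 12 h of 25.9 per library size, with a 95% counting interval of 4.43 to 1046) and then came back. Its mean at 84 h of the 2i course was 116% of that at 0 h, and its mean at 96 h of the 2iL course was 242%, with 1 of the libraries there below both 0 h libraries. The closely related gene Acot2 lies 15.6 kb away, and how reads were split between them is uncertain. Acot2 had 3 counts at 0 h, 3 at 72 h and 18 at 84 h of the 2i course. In the 2iL course it had 1 at 0 h and 15 at 96 h. Whether this bears on the counts of Acot1 was not tested.

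**Figure D2:**
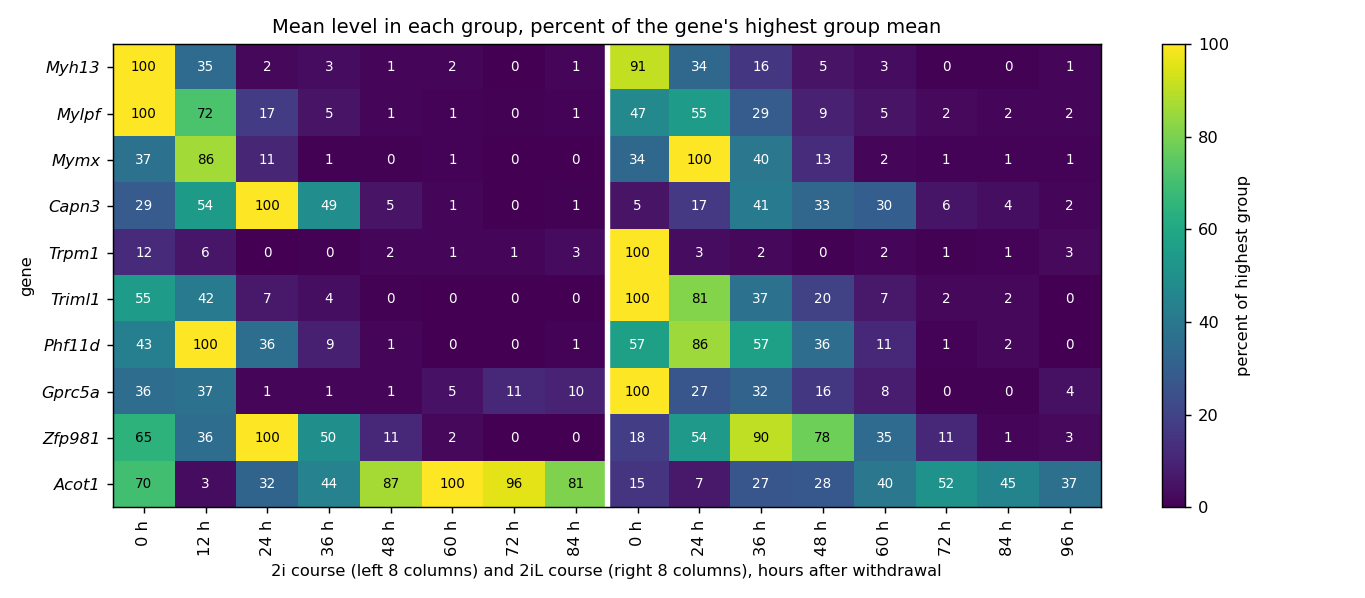
Mean CPM of each group as a percent of the gene's highest group mean (colour and number), with the 8 groups of the 2i course on the left and the 8 of the 2iL course on the right, each in order of hours. Trpm1 is at 12 in 2i and 100 in 2iL at 0 h, Capn3 and Zfp981 are brightest at 24 h of 2i and at 36 h of 2iL, and the row of Acot1 runs against the others.

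The first sampled time with a mean under 50% of its 0 h value was earlier in the 2i course than in the 2iL course for 9 of the 10 genes. For Gprc5a it was the same (24 h). Such times were not worked out for all tested genes, so no share stands beside the count, which describes these genes alone. Because 2iL was not sampled at 12 h, the order is not settled for Myh13, Trpm1 and Acot1, with times of 12 h in 2i and 24 h in 2iL. Trpm1 was only just under the mark at 12 h of the 2i course, at 0.498 times its 0 h mean. The other times were 24 h in 2i and 48 h in 2iL for Mylpf and Mymx, 24 h and 36 h for Triml1, and 36 h and 60 h for Phf11d. They were 48 h and 96 h for Capn3, and 48 h and 84 h for Zfp981, with 2i given before 2iL. The 2iL levels at 0 h of Capn3 and Zfp981 rest on 13 and 17 counts. Except for Acot1, the means stayed under 50% from the first such time on. Across the 16 group means (log2 CPM, prior count 2), which share time and depth, Mylpf, Mymx, Triml1, Phf11d and Myh13 correlated with each other at r = 0.82 to 0.96. Phf11d with Zfp981 (0.84) and Myh13 with Gprc5a (0.84) were within that range. The genes were chosen for a fall after withdrawal, so high values follow in part from the choice. Capn3 and Zfp981 correlated at 0.94, Trpm1 and Capn3 at -0.14, and Acot1 at -0.80 to -0.32 with the other 9.

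What LIF adds before withdrawal was asked by setting 2i against 2iL at 0 h. This contrast was not itself used to choose the genes, but presence at 0 h was. The number that passed may therefore depend in part on the choice, for instance through genes present mainly in 1 medium. Of the 10 genes, 4 were higher in 2i, 2 were lower and 4 did not pass (edgeR quasi-likelihood test, adjusted p under 0.05), where 8.47% of all tested genes passed, 3.78% higher and 4.69% lower. Mylpf averaged 157 ± 4.79 CPM in 2i and 73.5 ± 3.49 CPM in 2iL (SD, n = 2 each), a log2 fold change of 1.09 ± 0.18 (SE, edgeR adjusted p = 0.000105). Trpm1 averaged 9.44 ± 0.871 CPM in 2i and 76.9 ± 0.0449 CPM in 2iL (log2 fold change -3.01 ± 0.36, edgeR adjusted p = 7.83e-07), so that the channel was mostly a 2iL transcript. For both the groups do not overlap, and the calls held without any 1 of the 4 libraries.

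The other 4 calls at 0 h rest on fewer counts. Gprc5a was lower in 2i, with 18.9 ± 2.12 CPM in 2i and 52.7 ± 0.842 CPM in 2iL (log2 -1.49 ± 0.35, edgeR adjusted p = 0.00473). Capn3 was higher in 2i (2.38 ± 0.53, edgeR adjusted p = 0.00279), as were Zfp981 (1.83 ± 0.40, edgeR adjusted p = 0.0027) and Acot1 (2.21 ± 0.55, edgeR adjusted p = 0.00805), whose counts were 46 in 2i and 10 in 2iL. The libraries of the media did not overlap for any of these 4, which is a weak criterion with 2 libraries per group. Each call ended when 1 particular library was left out. Leaving out 2i replicate 1 ended that of Gprc5a (log2 -1.36, edgeR adjusted p = 0.104, with 6.46e-06 to 0.104 over all alternatives run). Leaving out 2iL replicate 2 ended that of Capn3 (log2 1.67, edgeR adjusted p = 0.109, over all alternatives 1.08e-05 to 0.109), and leaving out 2iL replicate 1 moved its log2 to 3.97. Zfp981 no longer passed with 2iL replicate 1 left out (log2 1.71, edgeR adjusted p = 0.0577) or with 2i replicate 1 left out (1.58 and 0.0745, over all alternatives 0.000941 to 0.0745). Acot1 no longer passed with 2iL replicate 1 (2.17 and edgeR adjusted p = 0.095), 2iL replicate 2 (2.24 and 0.0785) or 2i replicate 1 left out (1.60 and 0.269, over all alternatives 0.000897 to 0.269). With 2i replicate 1 left out, 3 of the 10 genes passed.

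The muscle genes Myh13 (log2 0.14 ± 0.32, edgeR adjusted p = 0.88) and Mymx (0.11 ± 0.35, 0.92) did not pass at 0 h. Triml1 (-0.85 ± 0.29, 0.0716) and Phf11d (-0.38 ± 0.30, 0.563) did not pass either. Triml1 passed when the 4 libraries set apart were left out (edgeR adjusted p = 0.00494) and when the 0 h groups were fitted alone (0.000609, range over all alternatives 0.000609 to 0.388). The muscle genes of the set thus divided at 0 h into Mylpf and Capn3, higher in 2i, and Myh13 and Mymx, without a difference that passed.

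**Figure D3:**
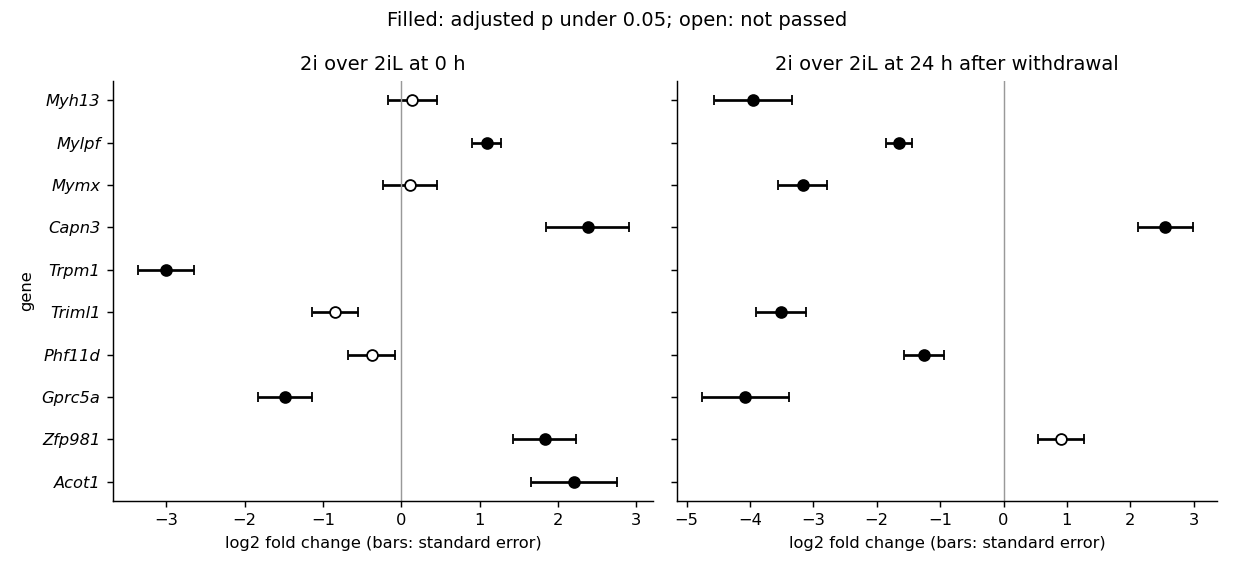
Log2 fold change of 2i over 2iL (horizontal axis, bars show the standard error, n = 2 libraries per group) for each gene at 0 h (left) and 24 h after withdrawal (right). Filled points passed the test (adjusted p under 0.05), and Trpm1 and Acot1 are not drawn at 24 h, where a group had 0 to 3 counts. Mylpf is on the positive side at 0 h and on the negative side at 24 h.

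At 24 h after withdrawal, 7 of the 10 genes were lower in 2i, 1 was higher and 2 did not pass, where 11.2% of all tested genes passed, 5.68% lower and 5.54% higher. Among the muscle genes Mylpf was at 27.1 ± 4.87 CPM in 2i and 86.1 ± 4.01 CPM in 2iL (log2 -1.65 ± 0.21, edgeR adjusted p = 1.01e-06), the reverse of its order at 0 h. Mymx was at 5.20 ± 2.58 CPM in 2i and 48.8 ± 9.46 CPM in 2iL (-3.17 ± 0.39, edgeR adjusted p = 1.01e-06), and Myh13 at 1.32 ± 0.870 CPM in 2i and 20.1 ± 2.67 CPM in 2iL (-3.96 ± 0.61, edgeR adjusted p = 3.34e-05). Capn3 was the gene that was higher in 2i, at 51.9 ± 10.6 CPM in 2i and 8.57 ± 4.003 CPM in 2iL (2.55 ± 0.43, edgeR adjusted p = 0.00011; SD of levels, n = 2 each).

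Triml1 (-3.51 ± 0.39, edgeR adjusted p = 2.89e-07), Gprc5a (-4.08 ± 0.69, 9.21e-05) and Phf11d (-1.25 ± 0.31, 0.00734) were lower in 2i as well. Trpm1 had 0 counts in 2i and 6 in 2iL, 4.17-fold lower in 2i with the 0 set to 3 counts (edgeR adjusted p = 0.0189). The error of the 6 counts is not in that value. Zfp981 (0.90 ± 0.36, edgeR adjusted p = 0.118) did not pass, nor did Acot1, with 22 counts in 2i and 2 in 2iL (ratio 5.28, 95% counting interval 1.30 to 46.3, edgeR adjusted p = 0.114). Phf11d no longer passed with 2iL replicate 2 (log2 -0.79, edgeR adjusted p = 0.263) or 2i replicate 2 left out (-0.91 and 0.169, over all alternatives 0.000458 to 0.263). Trpm1 no longer passed with 2iL replicate 2 (edgeR adjusted p = 0.184), 2i replicate 1 (0.0798) or 2i replicate 2 left out (0.131, over all alternatives 0.00825 to 0.184). Calls that held but moved by over 1.5 times were those of Gprc5a, at -3.32 with 2iL replicate 1 left out, -3.29 with 2i replicate 1 left out and -7.83 with 2i replicate 2 left out. Leaving out 2i replicate 1 or 2 put Myh13 at -4.68 or -3.33. Leaving out 2i replicate 2 put Mymx at -3.84, and leaving out 2iL replicate 1 put Capn3 at 3.17.

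Whether the change from 0 h to 24 h itself differed was tested as the change in the 2i course minus that in the 2iL course. It was negative for 4 of the 10 genes and positive for 0, where 3.19% of all tested genes passed, 1.79% negative and 1.4% positive, and 6 did not pass. The contrast is made of changes after withdrawal, and the genes were chosen by levels in these groups among others. The excess over all tested genes therefore follows in part from the choice. The 4 were Myh13 (-4.10 ± 0.70, edgeR adjusted p = 0.000462), Mylpf (-2.74 ± 0.28, 1.18e-07), Mymx (-3.28 ± 0.53, 0.000241) and Triml1 (-2.66 ± 0.49, 0.00139). For Mylpf and Mymx the means lay on opposite sides of 0 h, with 24 h means of 17.3% and 28.7% of 0 h in the 2i course and of 117% and 296% in the 2iL course. All 4 calls held in every alternative run. Leaving out the 2i 24 h replicate 1 or 2 put Myh13 at -4.83 or -3.47, and leaving out replicate 2 put Mymx at -3.95. Capn3 (0.18 ± 0.83, edgeR adjusted p = 0.969), Trpm1 (-2.36 ± 1.49, 0.519) and Gprc5a (-2.59 ± 0.82, 0.082), which passed between the media at 0 h and at 24 h alike, did not pass this test of the difference, which with these errors does not show that their changes were equal.

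At 48 h, 7 of the 10 genes were lower in 2i, 1 was higher and 2 did not pass, where 18.9% of all tested genes passed, 9.99% lower and 8.89% higher. Capn3 and Zfp981, higher in 2i at 0 h, were now lower in 2i, Capn3 with 2.64 ± 1.75 CPM in 2i and 17.2 ± 2.32 CPM in 2iL (SD, n = 2 each, log2 -2.77 ± 0.55, edgeR adjusted p = 0.000591) and Zfp981 with 2.23 ± 0.501 CPM in 2i and 15.7 ± 3.25 CPM in 2iL (-2.80 ± 0.45, edgeR adjusted p = 5.31e-05). Mylpf was lower in 2i (-2.85 ± 0.38, edgeR adjusted p = 3.19e-06). Mymx had 1 count in 2i and 34 in 2iL (ratio 23.1, 95% counting interval 3.87 to 938), Triml1 1 and 75 (50.9, 8.86 to 2037), Phf11d 3 and 125 (28.3, 9.46 to 139) and Gprc5a 3 and 47 (10.6, 3.42 to 53.4), with 2i given before 2iL. Acot1 was the gene higher in 2i (1.66 ± 0.48, edgeR adjusted p = 0.0151), and it no longer passed with 2iL replicate 1 (1.48, edgeR adjusted p = 0.116) or 2i replicate 2 left out (1.47 and 0.136, over all alternatives 0.00614 to 0.136). Myh13 (edgeR adjusted p = 0.134) and Trpm1 (0.288) did not pass. Leaving out 2i replicate 1 or 2i replicate 2 moved 5 other values by over 1.5 times without ending a call, to log2 values of -3.56 and -6.64 for Mymx, -3.56 and -2.16 for Capn3, -7.78 and -4.31 for Triml1, -5.43 and -4.10 for Phf11d and -2.56 and -7.10 for Gprc5a.

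At 72 h, 3 of the 10 genes were lower in 2i and 1 was higher, where 13% of all tested genes passed, 6.27% lower and 6.73% higher. The other 6 did not pass. Gprc5a had 17 counts in 2i and 1 in 2iL (ratio 25.6, 95% counting interval 4.01 to 1070, edgeR adjusted p = 0.00416). Capn3 had 0 counts in 2i and 12 in 2iL (2.66-fold lower in 2i with the 0 set to 3 counts, edgeR adjusted p = 0.0473). Zfp981 had 0 in 2i and 10 in 2iL (2.21-fold lower on the same terms, edgeR adjusted p = 0.0166). Mylpf had 2 in 2i and 16 in 2iL (ratio 5.31, 95% counting interval 1.25 to 47.6, edgeR adjusted p = 0.0498). Each of the 4 calls ended when some single library was left out. Mylpf no longer passed with any 1 of the 4 libraries left out (edgeR adjusted p = 0.0863 to 0.27), nor with the replicate block, RLE factors, no filter or DESeq2 (over all alternatives 0.0375 to 0.27). Capn3 no longer passed with 2iL replicate 2 (edgeR adjusted p = 0.23), 2i replicate 1 (0.236) or 2i replicate 2 left out (0.181), with the replicate block or with RLE factors (over all alternatives 0.0129 to 0.236). Zfp981 no longer passed with 2iL replicate 1 (edgeR adjusted p = 0.0692), 2i replicate 1 (0.164) or 2i replicate 2 left out (0.11), or with DESeq2 (over all alternatives 0.0163 to 0.164). Gprc5a no longer passed with 2iL replicate 1 left out (log2 3.36, edgeR adjusted p = 0.0754, over all alternatives 0.000196 to 0.0754) and had a log2 of 6.53 with 2iL replicate 2 left out.

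Within withdrawn cells, the levels of the last time can be set beside those 36 h earlier in each course, as a description, since the genes were chosen for low levels after withdrawal. In the 2i course the receptor Gprc5a had 18 counts at 84 h and 3 at 48 h (ratio 6.49, 95% counting interval 1.90 to 34.4), against the direction by which the set was named. Zfp981 had 0 counts at 84 h and 8 at 48 h (2.46-fold lower with the 0 set to 3 counts), and Trpm1 8 at 84 h and 5 at 48 h. Mylpf in the 2iL course was at 2.66 and 2.82 CPM at 96 h, against 8.88 and 8.20 CPM at 60 h. Capn3 had 3 counts at 96 h and 72 at 60 h (ratio 20.6, 95% counting interval 6.76 to 102), Zfp981 2 and 34 (14.6, 3.73 to 125), Triml1 1 and 22 (18.8, 3.05 to 778), and Phf11d 0 and 33 (at least 9.42-fold lower), with 96 h given before 60 h. Trpm1, with 9 counts at 96 h and 5 at 60 h and Acot1, with 24 and 25, had means of 2.07 and 5.23 CPM at 96 h and of 1.21 and 5.62 CPM at 60 h.

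The wider muscle programme did not move as a block. Of 31 skeletal muscle contractile genes 13 had enough counts to be tested. At 0 h, 1 was higher and 1 lower in 2i, with a median log2 fold change of -0.088 against -0.0035 over all tested genes. Tpm2, a tropomyosin, was higher in 2i (2.71 ± 0.42, edgeR adjusted p = 3.06e-05) and was at 3.31 with the 2iL replicate 2 left out. Tnni1, the slow troponin I, was lower (-2.37 ± 0.68, edgeR adjusted p = 0.0223), was at -4.10 with the 2i replicate 1 left out, and no longer passed with the 2i replicate 2 left out (-1.72, edgeR adjusted p = 0.237) or with DESeq2 (over all alternatives 0.00275 to 0.237).

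At 72 h against 0 h, 4 of the 13 contractile genes rose and 3 fell in the 2i course (median 0.67), where 29.7% of all tested genes changed (15.8% up and 13.9% down). In the 2iL course 4 rose and 2 fell (median 0.42), where 30.2% changed (15.2% up and 15.1% down). Myh7b, a myosin heavy chain of slow and heart muscle, fell at 72 h in the 2i course (-4.66 ± 0.56, edgeR adjusted p = 1.13e-07) and in the 2iL course (-2.88 ± 0.41, 2.15e-06). Tpm2 rose in the 2iL course (4.28 ± 0.36, edgeR adjusted p = 1.26e-10), and Actn3, the fast-fibre actinin, rose in the 2i course (3.21 ± 0.66, 0.000368). Tnnt1, the slow troponin T, had 3 counts at 72 h and 60 at 0 h of the 2i course (ratio 13.3, 95% counting interval 4.33 to 66.3). It had 1368 counts over all 31 libraries, most of them in other groups than these. Tnni1 fell in the 2iL course (-3.46 ± 0.78, edgeR adjusted p = 0.00085). Acta1, skeletal actin, had 16 counts at 72 h and 3 at 0 h of the 2i course and 8 and 0 in the 2iL course, and passed in both, but no longer with 2i 0 h replicate 2 (edgeR adjusted p = 0.0986) or 2i 72 h replicate 2 left out (0.0661) in the 2i course, nor with any of 2iL 0 h replicate 1 (0.108), 2iL 0 h replicate 2 (0.0987) or 2iL 72 h replicate 2 left out (0.064) in the 2iL course. Leaving out 1 library moved Myh7b to -5.46 (2i 72 h replicate 1), Actn3 to 4.16 (2i 0 h replicate 1), Tnnt1 to -4.33 (2i 72 h replicate 2), Tpm2 to 4.89 (2iL 0 h replicate 2) and Tnni1 to -4.21 (2iL 72 h replicate 1). For Acta1 in the 2i course the log2 was 6.43 or 2.14 with the 0 h replicate 1 or 2 left out.

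The factors that start the muscle programme were at or near 0. Over all 31 libraries Myod1 had 11 counts, Myog 3, Myf5 1 and Myf6 0, and Mymk, the myomaker partner of Mymx in fusion, had 1. Of 15 myogenic regulators and fusion genes 7 were tested. At 0 h 0 were higher and 0 lower in 2i (median 0.46), with 8.47% of all tested genes called by edgeR. At 72 h of the 2iL course 0 changed (median 0.19), where 30.2% of all tested genes changed. At 72 h of the 2i course 2 rose and 1 fell (median 0.48), where 15.8% of all tested genes rose and 13.9% fell. Pax3, a factor of muscle precursors and neural crest, had 24 counts at 72 h and 1 at 0 h of the 2i course (ratio 36.1, 95% counting interval 5.89 to 1485). Pax7, of the same family, rose (2.53 ± 0.86, edgeR adjusted p = 0.0251) and Six4 fell (-1.34 ± 0.35, 0.00415). Pax7 no longer passed with any 1 of the 4 libraries left out or with DESeq2 (over all alternatives 0.0028 to 0.127), nor Six4 with the 72 h replicate 1 left out (-0.96, edgeR adjusted p = 0.127, over all alternatives 7.55e-06 to 0.127). The fitted log2 of Pax3, 4.82, was 6.98 with the 0 h replicate 1 left out, 4.14 with the 0 h replicate 2 and 4.21 with the 72 h replicate 1.

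Of 9 melanocyte genes 4 were tested, and at 0 h they did not go one way. Mitf, the factor that drives the lineage and is also transcribed elsewhere, stood at 10.8 and 8.27 CPM in 2i and 85.8 and 74.6 CPM in 2iL before withdrawal (log2 -3.04 ± 0.33, edgeR adjusted p = 1.11e-07), and Trpm1 at 10.1 and 8.82 CPM in 2i and 76.9 CPM in each 2iL library. At 0 h 2 of the 4 were lower in 2i and 0 higher (median -1.34), with 8.47% of all tested genes called and 4.69% lower. Pmel, a melanosome protein, had 4 counts in 2i and 43 in 2iL (-3.27 ± 0.80, edgeR adjusted p = 0.00687), and no longer passed with the 2i replicate 1 (-3.91, edgeR adjusted p = 0.0607) or replicate 2 left out (-2.90 and 0.0802, over all alternatives 0.000439 to 0.0802). The other 2 had higher means in 2i and did not pass, Mlana, a melanosome antigen, with 7.26 CPM in 2i and 5.66 CPM in 2iL (0.36 ± 0.48, edgeR adjusted p = 0.77) and Dct, a pigment enzyme, with 5.54 CPM in 2i and 3.45 CPM in 2iL (0.56 ± 0.77, 0.781). At 72 h against 0 h, 3 of the 4 fell in the 2iL course (median -2.98), where 30.2% of all tested genes changed and 15.1% fell, with Mitf at -5.10 ± 0.42 (edgeR adjusted p = 5.84e-11), and 2 fell in the 2i course (median -1.28), where 29.7% changed and 13.9% fell. In the 2i course Mitf (-1.99 ± 0.57, edgeR adjusted p = 0.00892) no longer passed with the 0 h replicate 1 (-1.76, 0.0813) or the 72 h replicate 1 left out (-1.66, 0.121, over all alternatives 0.0022 to 0.121). Their part in the level of Trpm1 was not tested. The 2iL means of Trpm1 were at 3.48% of 0 h at 24 h and 1.97% at 36 h, and those of Mitf at 68.0% and 44.5%. The pigment enzyme genes Tyr and Tyrp1 had 62 and 4 counts over all 31 libraries, and Slc45a2 and Gpr143 had 3 each.

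**Figure D4:**
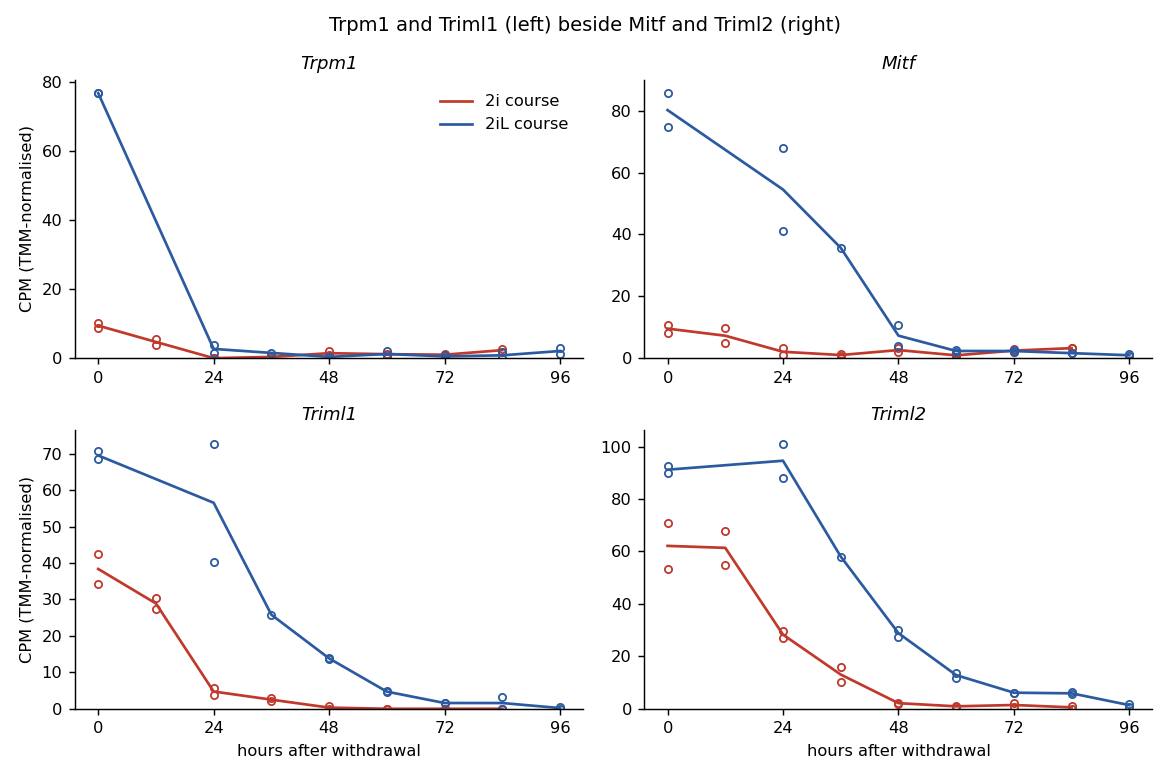
CPM (TMM-normalised, linear axes) against hours after withdrawal for Trpm1 and Triml1 on the left and Mitf and Triml2 on the right, with circles for libraries, lines through group means, red for the 2i course and blue for the 2iL course. Mitf starts at a mean of 9.55 CPM in 2i and 80.2 CPM in 2iL, and at 24 h of the 2iL course Trpm1 has a mean of 2.68 CPM and Mitf 54.5 CPM.

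Relatives of the 10 genes served to see whether whole families moved. Of 38 paralogs 20 were tested, of which 0 were higher and 1 was lower in 2i at 0 h (median 0.11), against 3.78% higher and 4.69% lower of all tested genes. The 1 was Myh14, a non-muscle myosin heavy chain (-1.18 ± 0.30, edgeR adjusted p = 0.00995), which no longer passed with 2iL replicate 1 (0.145) or 2i replicate 1 left out (0.182) or with DESeq2 (over all alternatives 0.00311 to 0.182). At 72 h 4 rose and 6 fell in the 2i course (median 0.15), where 15.8% of all tested genes rose and 13.9% fell. In the 2iL course 6 rose and 5 fell (median 0.27), where 15.2% of all tested genes rose and 15.1% fell. Triml2, the relative of Triml1 that lies 39.1 kb from it on the opposite strand, fell in both courses at 72 h (-5.45 ± 0.40 in 2i, edgeR adjusted p = 1.02e-11, and -3.88 ± 0.28 in 2iL, 3.37e-12). At 24 h Triml2 had 27.1 and 29.5 CPM in 2i and 101 and 88.1 CPM in 2iL. Myl9, a regulatory light chain of smooth muscle and other cells, rose, with 112 counts at 72 h and 2 at 0 h of the 2i course (ratio 84.3, 95% counting interval 22.8 to 704) and 123 at 72 h and 1 at 0 h of the 2iL course (129, 22.8 to 5152; fitted log2 6.63, and 5.77 or 8.76 with the 0 h replicate 1 or 2 left out). Capn2, a widely expressed calpain, also rose at 72 h (4.21 ± 0.47 in 2i, edgeR adjusted p = 2.92e-08, and 3.67 ± 0.57 in 2iL, 7.4e-06). Capn5 had 3 counts at 72 h and 58 at 0 h of the 2iL course (ratio 18.4, 95% counting interval 5.98 to 91.7; fitted log2 -4.07, and -4.72 with the 72 h replicate 2 left out). Leaving out the 72 h replicate 1 or 2 put Triml2 at -4.74 or -6.51 in the 2i course.

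Naive genes gave the setting of these changes. Of 18 naive pluripotency genes, all tested, 7 were lower and 0 higher in 2i at 0 h (median -0.68), where 4.69% of all tested genes were lower and 3.78% higher. Among the 7 were Klf4 (-2.59 ± 0.25, edgeR adjusted p = 1.28e-08) and Tcl1 (-2.29 ± 0.24, 5.71e-08). At 24 h 14 of the 18 were lower and 0 higher in 2i (median -2.88, against 0.034 over all tested genes), where 5.68% of all tested genes were lower and 5.54% higher. Of 14 formative epiblast genes 7 were higher and 0 lower in 2i at 0 h (median 2.06), and at 24 h 11 and 0 (median 2.12), beside the same shares of all tested genes. By the sign of the 0 h contrast alone, Mylpf, Capn3, Zfp981 and Acot1 went with the formative genes, and Trpm1 and Gprc5a with the naive genes. Apart from Mylpf and Trpm1, these calls each ended when some single library was left out. The sign does not class the genes by their later course. At 84 h of the 2i course Mylpf, Capn3 and Zfp981 were at 0.959%, 1.83% and 0% of 0 h, and Acot1 at 116%.

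Markers of other cell types were also present, and their part in the results was not tested. Of 11 primitive endoderm markers 5 were tested, with a summed level of 318 to 425 CPM in 2i and 668 to 720 CPM in 2iL at 0 h and 288 to 1040 CPM in later libraries, of which Sparc held most counts (29513 over 31 libraries). The defining factors Gata4, Gata6, Sox17 and Sox7 had 17, 27, 17 and 2 counts over all libraries. At 0 h 2 of the 5 were lower in 2i and 0 higher, where 4.69% of all tested genes were lower and 3.78% higher. These shares also stand beside the lists that follow. Of 10 trophectoderm markers 6 were tested and 0 changed between the media at 0 h, with sums of 223 to 239 CPM in 2i and 172 to 184 CPM in 2iL. Of 12 germline genes 9 were tested, 3 higher and 1 lower in 2i at 0 h, with sums of 165 to 167 CPM in 2i and 142 to 151 CPM in 2iL. Of the 2-cell-like markers none had enough counts for a test, with sums over 11 genes of 2.21 to 6.57 CPM in 2i and 3.55 to 4.20 CPM in 2iL at 0 h and 0 to 15.5 CPM later.

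The neighbours of the 10 genes were examined because reads of a close gene can be counted for another. Of 15 tested genes that overlap a member or lie nearest to it within 100 kb, 0 rose and 6 fell at 72 h of the 2i course (median -0.67), where 29.7% of all tested genes changed and 13.9% fell. At 72 h of the 2iL course 2 rose and 5 fell (median -0.63), where 30.2% changed and 15.1% fell. Sept1, a septin gene 149 bases from Mylpf on the opposite strand, fell by 72 h in the 2i course (-2.10 ± 0.30) and the 2iL course (-2.37 ± 0.25, edgeR). It was at 45.2 and 40.3 CPM in 2i and at 74.8 and 76.0 CPM in 2iL at 0 h, the opposite order to Mylpf, but no longer passed there (-0.81 ± 0.22, edgeR adjusted p = 0.016) with any 1 of the 4 libraries left out (0.0903 to 0.164, over all alternatives 0.000514 to 0.164). Slc29a1, a nucleoside transporter gene 1.37 kb from Mymx on the same strand, fell by 72 h in both courses (-2.01 ± 0.27 in 2i and -2.48 ± 0.30 in 2iL, edgeR). It was at 36.5 CPM on average at 12 h of the 2i course, 44.2% of its 0 h mean, where Mymx was at 232% of its own. The strand setting of the counting is not given in the sources used here.

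The genes with the most similar course, by Pearson r of mean log2 CPM over the 16 groups, included naive transcripts for some of the 10. They were Tfcp2l1 (0.98), Esrrb (0.97) and Pdha1 (0.97) for Myh13, and Kat6b (0.99), Tcl1 (0.99) and Zfp42 (0.98) for Triml1, which lies 154 kb from Zfp42. They were Pecam1 (0.98) for Mylpf, Cep55 (0.98) for Mymx, Cpne5 (0.98) for Phf11d, Hsd17b11 (0.97) for Zfp981 and Mphosph8 (0.95) for Capn3. For Trpm1, Gprc5a and Acot1 the nearest were Klhl22 (0.96), Hk1 (0.92) and March8 (0.93). Of the 30 nearest genes in all, 3 for each of the 10, only 17 were again among the nearest with a prior count of 0.5, 13 over the 31 libraries and 3 by Spearman, so the ranks among similar genes are loose.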

How the data were processed

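RNA of 32 bulk samples was read by 3′ sequencing. The authors deposited counts of reads per gene, made with bcl2fastq, STAR 2.6.0a and HTSeq on mm10, per the submitters' processing notes; the annotation release, the strand setting and the handling of reads with several alignments are not given in the sources used here. Rows for reads in no feature (23.4% to 55.4% of counted reads per library) or in several (0.218% to 0.436%) were left out of totals and tests. Gene names and positions came from GENCODE M21, with 30934 of 31053 IDs named. Library 2iL 36 h replicate 2 was left out.

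Genes with at least 10 counts at the median depth in 2 libraries and 15 counts in all were tested (11849) with edgeR 4.0.16 (R 4.3.3): quasi-likelihood, TMM factors, all 16 groups in 1 fit (31 libraries, 15 residual degrees of freedom, common dispersion 0.0211), Benjamini-Hochberg adjustment over all tested genes, two-sided, threshold 0.05. Ratios with 1 to 3 counts have exact Clopper-Pearson intervals at 95%, and a group at 0 counts was set to 3 counts over the group for a bound. The other group's counts were taken as exact there, so the bound is loose where they are few. Alternatives were RLE factors, no filter, a replicate block, DESeq2 1.42.0, the groups compared alone, 4 libraries left out, the shallow library kept, and each replicate left out in turn.

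The 10 genes, the gene lists and the 4 libraries set apart were chosen with earlier results of these data known. Besides the 10, the text names some called genes of the lists by largest change and some called neighbours within 100 kb. For each member it names at least the nearest of the 3 genes closest in pattern. Some genes that were not called or not tested are named as well.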

Additional observations from a re-analysis of the deposited data

Results flagged for a closer look

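For 4 of the 10 genes the change from 0 h to 24 h differed between the courses by a test of the difference itself, which is why they are given again here. The genes were chosen by levels that include these groups, so the number that passed depends in part on that choice. The change in the 2i course minus that in the 2iL course was -4.10 on the log2 scale for Myh13, -2.74 for Mylpf, -3.28 for Mymx and -2.66 for Triml1, each past the threshold in edgeR. Mylpf and Mymx had higher means at 24 h than at 0 h in the 2iL course and lower means at 24 h in the 2i course.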

How the results depend on the processing

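Of 990 values of 90 tests under the alternatives, 898 kept their direction and side of the threshold, 88 no longer passed, 2 newly passed and 2 reversed: Mymx at 0 h, not called, was -0.10 without 2iL replicate 1 and -0.29 without 2i replicate 2 (-0.29 to 0.50 over the 4 libraries left out). The causes were not tested. Counts of genes called moved by over 1.5 times as follows. With the 4 libraries set apart left out, 1697 instead of 1004 were called at 0 h, 2061 instead of 1330 at 24 h, 2424 instead of 1541 at 72 h, 849 instead of 378 for the difference between courses and 2431 instead of 1485 for 2iL 24 h against 0 h. With the groups compared alone the counts were 1984 at 0 h, 981 instead of 2237 at 48 h, 2373 at 72 h, 762 for the difference, 3236 instead of 2142 for 2i 84 h against 48 h and 3553 instead of 2176 for 2i 24 h against 0 h. Leaving out 1 replicate, which leaves a group with 1 sample assumed to vary like the other groups, gave 532 to 655 at 0 h, 717 to 1112 at 24 h, 1216 to 2710 at 48 h, 739 to 1001 at 72 h, 216 to 321 for the difference, 1075 to 1303 for 2i 84 h against 48 h, 641 to 918 for 2i 12 h against 0 h, 1277 to 1424 for 2i 24 h, 2158 to 2956 for 2i 72 h and 711 to 982 for 2iL 24 h. Of the 10 genes, 3 to 6 were called at 0 h, and 1 to 2 at 72 h. At 72 h, where 4 of the 10 passed, 2 passed with RLE factors, 2 with DESeq2 and 2 with the replicate block. With the groups alone none of these 4 had enough counts for a test, nor had Trpm1 at 24 h. The replicate numbers are shared only as numbers, with correlations of deviations of -0.139 to 0.136 between compared groups, and the replicate block ended 2 calls, Mylpf (adjusted p = 0.0502, edgeR) and Capn3 (0.0537) at 72 h. On raw library totals 4 of 20 levels at 0 h moved beyond 1 SD, all in 2iL: Myh13 to 56.1, Trpm1 to 79.6, Triml1 to 72.0 and Gprc5a to 54.6 CPM. Of the 30 closest genes 17, 3 and 13 were shared with a prior count of 0.5, Spearman and the 31 libraries. Where a group had 0 to 3 counts of a gene, depth left a ratio with a wide counting interval or a bound.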
